A study of Mus musculus with 4 samples.

Results

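The S100 proteins and annexins examined here are 9 mouse genes: S100a4, S100a6, S100a10, S100a11, S100a13, Anxa1, Anxa2, Anxa5 and Anxa6. Every probe set annotated to one of these genes alone was taken, which gave 16 of the 45101 probe sets on the array and covered 8 of the 9 genes. S100a11 had no probe set of its own. Of the 16 probe sets, 14 lay at or above percentile 50 of the mean level and were tested, among 22519 probe sets tested in all. The compared cells were CD4+ Foxp3+ regulatory T cells from spleens of Balb/c Foxp3 GFP mice, a strain whose cells report Foxp3 by green fluorescence, sorted with Nrp1 (Nrp1-positive, 2 arrays) or without Nrp1 (Nrp1-negative, 2 arrays). Nrp1, or neuropilin-1, is a surface receptor that binds semaphorins and VEGF. The mice were 4 to 6 weeks old, except that Nrp1-negative replicate 1 is labelled as 4 to 8 weeks. That array is titled Nrp1-negative, but its source name and cell type read as Nrp1-positive, and it was grouped by its title. Nothing in the labels says whether arrays of one group came from different animals or sorting runs, so the spread between arrays may be technical. The p-values below rest mostly on the variance of other probe sets on these arrays and do not measure a spread between animals.

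S100 proteins are small calcium sensors with EF-hand motifs. On binding calcium they expose a surface that docks onto target proteins such as myosins and annexins. Annexins bind membranes rich in acidic phospholipids when calcium rises, and they take part in membrane repair, vesicle traffic and links between membrane and actin. In T cells several members of both families are known to be more abundant in activated and memory cells than in naive cells.

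Each replicate number holds 1 array of each group, and the numbers also mark a technical difference. The authors had scaled both arrays of replicate 1 to a trimmed mean of 500.003 and both arrays of replicate 2 to 150.001. Correlations of log2 values over the 22519 probe sets were 0.977 and 0.983 between the groups within replicate 1 and within replicate 2, and 0.948 and 0.936 between the replicates of the Nrp1-positive and of the Nrp1-negative group. Probe sets are not independent replicates. All arrays were therefore brought to one trimmed mean, and the groups were compared within each replicate number. The sorted marker Nrp1 had a scaled intensity of 9344 and 7745 in Nrp1-positive replicates 1 and 2, against 339 and 1223 in Nrp1-negative replicates 1 and 2. The array of conflicting labels, Nrp1-negative replicate 1, thus had the least Nrp1 RNA of all arrays, as its title would have it. Ikzf2, also taken to check the labels, was at 19031 and 16189 in Nrp1-positive replicates 1 and 2. It was at 9414 and 10297 in Nrp1-negative replicates 1 and 2, and thus also lowest on that array. The T cell gene Cd3e was present on all arrays, from 5243 to 8016. Cd4 was lower in replicate 2, at 2261 and 755 in Nrp1-positive replicates 1 and 2, against 2199 and 723 in Nrp1-negative replicates 1 and 2. The Foxp3 probe set lay at percentile 17.8 and could not check the label. Xist, the RNA that coats the inactive X chromosome, was at 83.2 on Nrp1-positive replicate 1 and at 4083 on Nrp1-negative replicate 1, against 13630 and 13058 on the arrays of replicate 2, Nrp1-positive first. The mice behind the arrays of replicate 1 therefore need not be alike in sex, and the part of this in the values below was not tested.

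The S100 members lie together in the genome. All 5 are on mouse chromosome 3 in the RefSeq gene table (GRCm38.p6), where S100a4 and S100a6 each neighbour S100a5 and where S100a10 neighbours S100a11. The 4 annexins lie on 4 chromosomes. Of the 9 genes, 7 had a promoter in the RefSeq table, taken as 250 bases before to 50 after the gene's start. Those of the 3 genes with the largest differences between the groups, S100a4, Anxa2 and S100a6, are shown beside that of Anxa5, whose groups nearly coincided. The S100a4 promoter is chr3:90603520-90603819 (+ strand), that of S100a6 chr3:90612644-90612943 (+ strand), that of Anxa2 chr9:69453433-69453732 (+ strand) and that of Anxa5 chr3:36475838-36476137 (- strand). Capitals mark matches on either strand to TATAAA (the TATA box), GGGCGG (the GC box of Sp and Krüppel-like factors) or TGANTCA (the AP-1 site).
S100a4 promoter: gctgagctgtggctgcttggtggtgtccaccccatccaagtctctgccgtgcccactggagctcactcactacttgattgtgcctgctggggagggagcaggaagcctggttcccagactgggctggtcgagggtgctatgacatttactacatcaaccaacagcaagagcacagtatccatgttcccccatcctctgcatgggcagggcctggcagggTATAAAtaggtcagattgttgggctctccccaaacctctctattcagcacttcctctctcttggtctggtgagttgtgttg
Anxa2 promoter: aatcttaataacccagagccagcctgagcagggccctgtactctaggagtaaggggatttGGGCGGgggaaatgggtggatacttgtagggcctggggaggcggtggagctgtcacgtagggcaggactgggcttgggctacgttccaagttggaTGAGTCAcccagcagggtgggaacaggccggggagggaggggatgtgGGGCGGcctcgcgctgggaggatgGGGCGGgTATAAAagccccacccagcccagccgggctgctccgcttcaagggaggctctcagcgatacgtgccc
S100a6 promoter: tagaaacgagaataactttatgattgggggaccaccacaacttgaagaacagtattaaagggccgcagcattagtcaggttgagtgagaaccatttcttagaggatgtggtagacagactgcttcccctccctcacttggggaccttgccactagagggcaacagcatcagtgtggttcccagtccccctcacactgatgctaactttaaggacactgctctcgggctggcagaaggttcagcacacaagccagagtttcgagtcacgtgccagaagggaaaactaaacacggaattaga
Anxa5 promoter: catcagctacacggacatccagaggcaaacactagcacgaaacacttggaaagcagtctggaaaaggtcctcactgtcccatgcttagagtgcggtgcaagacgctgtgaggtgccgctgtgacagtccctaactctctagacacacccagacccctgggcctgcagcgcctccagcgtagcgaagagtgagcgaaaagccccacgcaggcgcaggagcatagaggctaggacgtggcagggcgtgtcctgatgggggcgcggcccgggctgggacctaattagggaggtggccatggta
The S100a4 sequence held 1 TATAAA, 31 bases before the start. The Anxa2 sequence held 1 TATAAA, 3 GGGCGG and 1 TGANTCA, and none of these matches overlapped another. The S100a6 and Anxa5 sequences held no match to the 3 motifs. Of the member promoters not shown, that of Anxa1 held 1 TATAAA, that of S100a11 held 3 GGGCGG and 2 TGANTCA, and that of S100a13 held no match. Among 32851 promoters of this length, 13.6% held TATAAA, 35.7% GGGCGG and 7.81% TGANTCA. A match is a description of the letters, and its part in the values of these genes was not tested.

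S100a4, Anxa2 and S100a6 had the largest differences of the 8 genes, each with more RNA in Nrp1-positive cells in both replicate numbers, and in none of them did the difference pass the test. In replicate 1 the Nrp1-positive array was at least 2-fold above the Nrp1-negative one for S100a4, Anxa2 and S100a6, whereas in replicate 2 the 3 differences were far smaller. S100a10 differed less, and Anxa5 hardly differed. Values below are scaled intensities, and each difference subtracts the Nrp1-negative from the Nrp1-positive value on the scale log2(intensity + 18.3), which understates the change of dim genes.

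**Figure D1:**
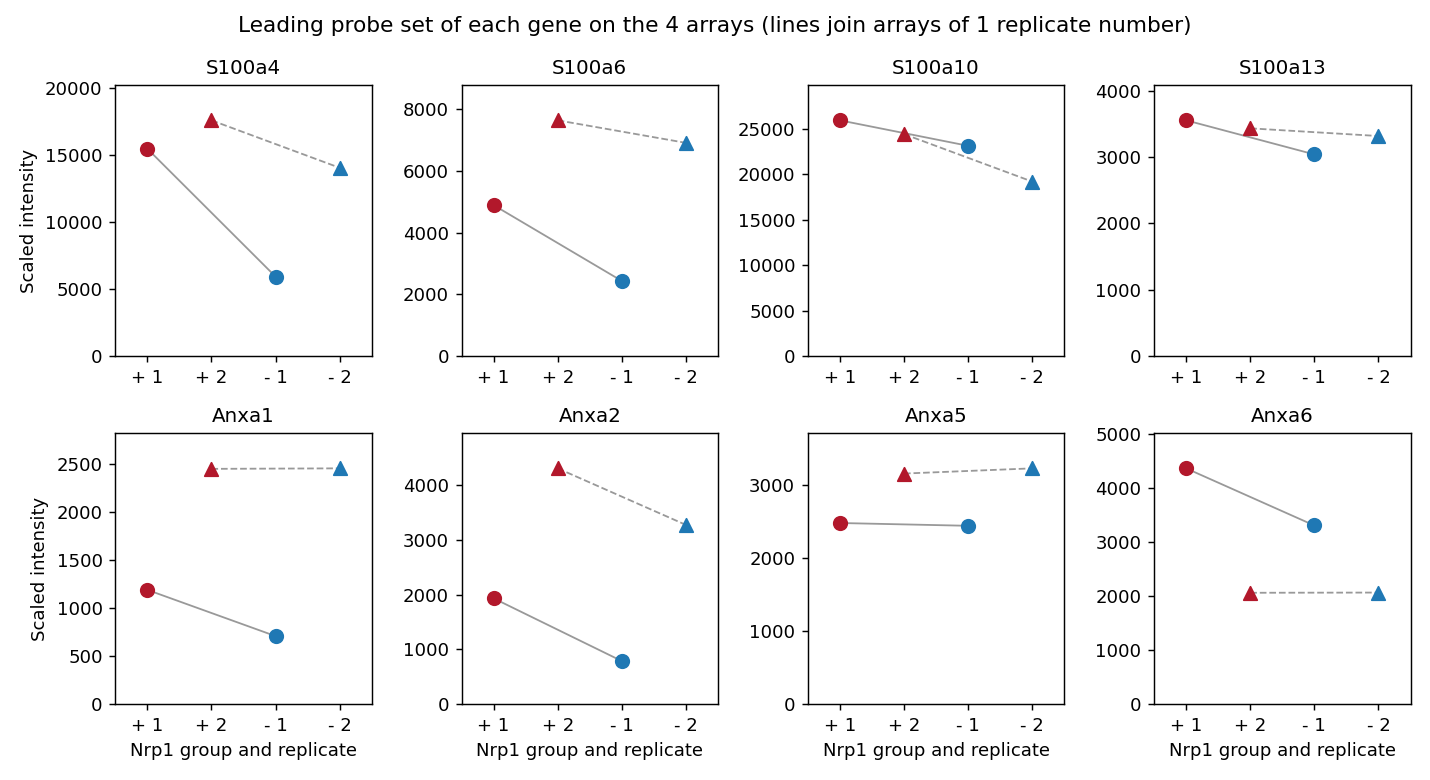
Scaled intensity (linear axis from 0) of the leading probe set of each of the 8 genes on the 4 arrays, Nrp1-positive in red and Nrp1-negative in blue, with circles for replicate 1 and triangles for replicate 2; lines join the arrays of one replicate number. S100a4 stood at 5944 on Nrp1-negative replicate 1 and between 14071 and 17615 on the other 3 arrays, while Anxa1, Anxa2 and S100a6 were higher on both arrays of replicate 2 than on either of replicate 1.

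S100a4 encodes a protein that binds the heavy chain of nonmuscle myosin and is known for its part in cell motility. Its probe set 1424542_at had intensities of 15498 and 17615 in Nrp1-positive replicates 1 and 2, against 5944 and 14071 in Nrp1-negative replicates 1 and 2. Both Nrp1-positive arrays were above both Nrp1-negative ones, and the low array was Nrp1-negative replicate 1, the one whose labels conflict. Nrp1-positive cells averaged 16556 ± 1497 and Nrp1-negative cells 10007 ± 5746 (SD, n = 2 each). The difference was 1.38 in replicate 1 and 0.32 in replicate 2, and 0.85 over both (1.80-fold, standard error 0.20). In limma with the replicate number as a block, its adjusted p was 0.222, and without the block it was 1.00. With the arrays also quantile normalised, the difference was 0.79 and passed in limma with the block (adjusted p = 0.0186).

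S100a6, or calcyclin, binds the ubiquitin ligase adaptor encoded by Cacybp and several annexins. Its probe set 1421375_a_at was at 4896 and 7644 in Nrp1-positive replicates 1 and 2, and at 2439 and 6914 in Nrp1-negative replicates 1 and 2. The groups overlapped, since Nrp1-negative replicate 2 was above Nrp1-positive replicate 1. The difference was 1.00 in replicate 1 and 0.14 in replicate 2, with a mean of 0.57 (1.49-fold, standard error 0.17, adjusted p = 0.420 in limma with the block). It passed in limma with the block in 1 setting, where arrays were quantile normalised and each gene had 1 probe set (adjusted p = 0.0276), an alternative chosen after seeing the data.

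S100a10 is the S100 protein that does not bind calcium, and it forms a complex with Anxa2 at the plasma membrane. Its brightest probe set, 1456642_x_at, was at 25945 and 24429 in Nrp1-positive replicates 1 and 2, against 23141 and 19208 in Nrp1-negative replicates 1 and 2. A second, 1416762_at, was at 21147 and 23934 in Nrp1-positive cells and at 16152 and 20583 in Nrp1-negative cells, in the same order. On both probe sets the groups did not overlap. The first differed by 0.16 in replicate 1 and 0.35 in replicate 2 (mean 0.26, standard error 0.13, adjusted p = 0.783 in limma with the block), and the second by 0.39 and 0.22 (mean 0.30, adjusted p = 0.677). The third probe set, 1439348_at, was far dimmer, at 377 to 532, and its difference had opposite signs, at −0.08 in replicate 1 and 0.48 in replicate 2.

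S100a13, which takes part in the release of cytokines that lack a signal peptide, was nearly level. Its probe set 1418704_at was at 3554 and 3433 in Nrp1-positive replicates 1 and 2, and at 3040 and 3317 in Nrp1-negative replicates 1 and 2. The groups did not overlap, with a mean difference of 0.14 (0.22 in replicate 1 and 0.05 in replicate 2, adjusted p = 0.916 by limma with the block). The probe set that carries S100a11, 1460351_at, is also annotated to S100a11-ps and Gm12854, so that its signal cannot be given to one gene. It was at 8591 and 13127 in Nrp1-positive replicates 1 and 2, against 5511 and 13535 in Nrp1-negative replicates 1 and 2. Its difference was 0.64 in replicate 1 and −0.04 in replicate 2, and the groups overlapped.

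Anxa2 binds S100a10 at the cell surface and under the plasma membrane, where the complex contacts actin and plasminogen. Its probe set 1419091_a_at had intensities of 1931 and 4300 in Nrp1-positive replicates 1 and 2, against 787 and 3270 in Nrp1-negative replicates 1 and 2. The Nrp1-positive array was the higher one in each replicate number, but the groups overlapped because both arrays of replicate 2 were above both of replicate 1. The difference was 1.28 in replicate 1 and 0.39 in replicate 2, with a mean of 0.83 (1.78-fold, standard error 0.18, adjusted p = 0.157 by limma with the block), the lowest adjusted p of the 14 probe sets. After quantile normalisation it was 0.86 and passed in limma with the block (adjusted p = 0.0242). The other Anxa2 probe sets were dim: 1437692_x_at, at 99.3 to 138, differed by 0.02 in replicate 1 and 0.17 in replicate 2, and 1437691_at, at 9.10 to 22.1, lay below the filter and was not tested.

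Anxa1, a glucocorticoid-induced protein whose released form acts on formyl peptide receptors, differed between the groups in replicate 1 alone. Its probe set 1448213_at was at 1190 and 2448 in Nrp1-positive replicates 1 and 2, and at 709 and 2454 in Nrp1-negative replicates 1 and 2. The difference was 0.73 in replicate 1 and −0.0031 in replicate 2 (mean 0.36, standard error 0.17, adjusted p = 0.742 by limma with the block). The other Anxa1 probe set, 1444016_at, was at 5.61 to 23.9 and below the filter.

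Anxa5, which binds phosphatidylserine and is used as a stain for dying cells, had nearly the same level in both groups. Its probe set 1425567_a_at was at 2482 and 3159 in Nrp1-positive replicates 1 and 2, and at 2444 and 3230 in Nrp1-negative replicates 1 and 2. The mean difference was −0.0049 with a standard error of 0.11 (0.02 in replicate 1 and −0.03 in replicate 2). Anxa6, the annexin with a duplicated core, had 4 tested probe sets that did not give one direction. The leading one, 1415818_at, was at 4368 and 2064 in Nrp1-positive replicates 1 and 2, against 3311 and 2068 in Nrp1-negative replicates 1 and 2. Its difference was 0.40 in replicate 1 and −0.0028 in replicate 2. Of the other 3, 1429246_a_at differed by 0.24 and 0.34, 1429247_at by −0.40 and 0.21 and 1442288_at by −0.04 and 0.20, replicate 1 first.

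**Figure D2:**
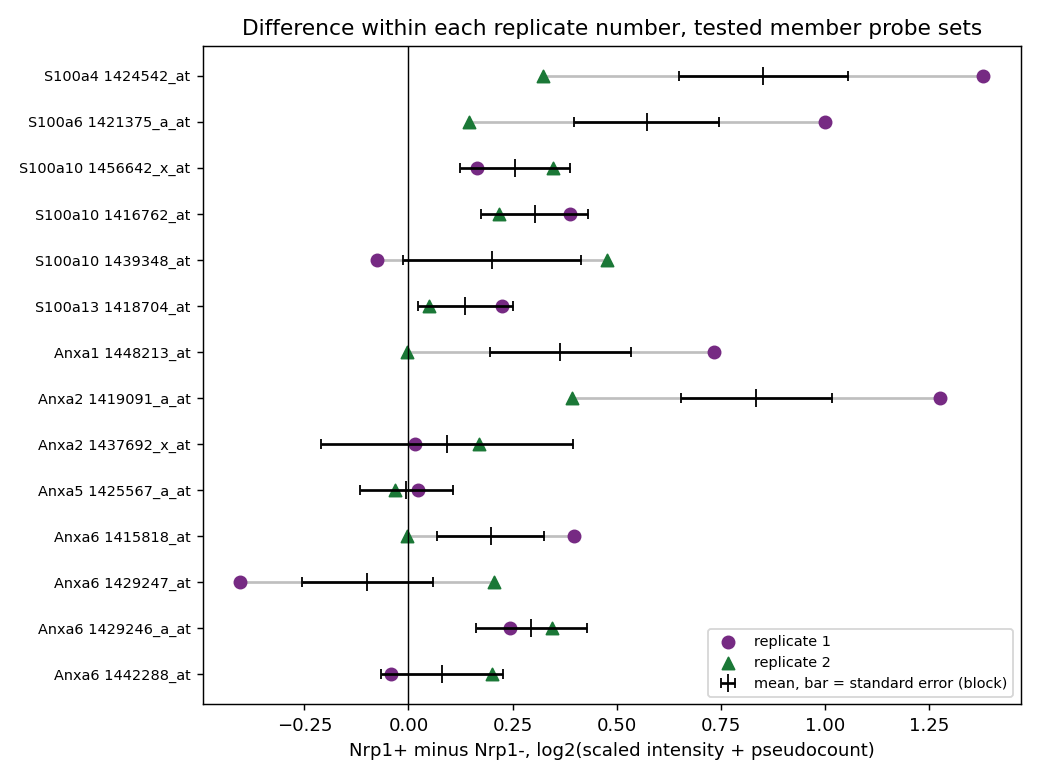
Difference between Nrp1-positive and Nrp1-negative arrays (x axis, log2 scale) within replicate 1 (circles) and within replicate 2 (triangles) for the 14 tested member probe sets; vertical ticks give the mean of the 2 and black bars its standard error in limma with the replicate block. S100a4, Anxa2 and S100a6 lay furthest to the right in replicate 1, at 1.38, 1.28 and 1.00, and at 0.32, 0.39 and 0.14 in replicate 2.

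Over the 14 tested probe sets, 0 were higher and 0 lower at an adjusted p below 0.05 in limma with the block, where 0.124% of all tested probe sets were called higher and 0.0799% lower. At an unadjusted p below 0.05 there were 4 (S100a4, S100a6, Anxa2 and S100a10 1416762_at), where the share of all probe sets was 6.86%. Without the block, limma called 0 members and 0 probe sets of the array, with 0 members and 243 probe sets (1.08%) at an unadjusted p below 0.05. After quantile normalisation with the block, 2 of the 14 were called higher (S100a4 and Anxa2) and 0 lower, against 0.364% and 0.258% of all probe sets. With 1 probe set a gene as well, 3 of 8 genes were higher, S100a6 being the third, and 0 lower, against 1.05% and 0.608% of 10200 genes. With the array of conflicting labels moved to the Nrp1-positive group, as its source name reads, replicate 2 alone informs the difference, and 0 members and 0 probe sets were called, with 0 members and 851 probe sets at an unadjusted p below 0.05.

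**Figure D3:**
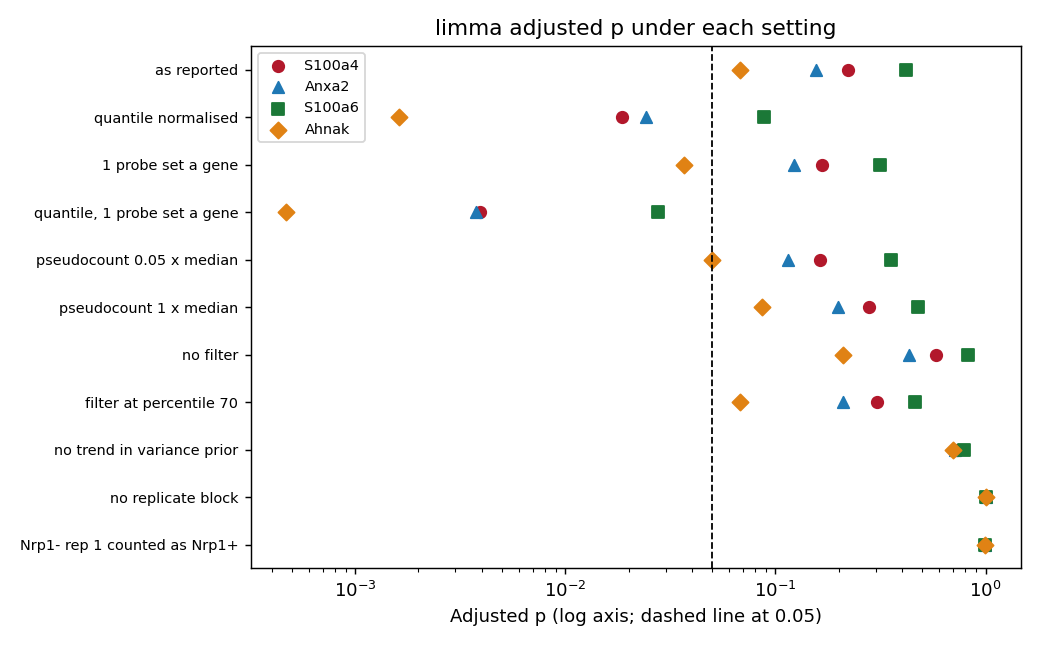
Adjusted p in limma (log axis, dashed line at 0.05) for S100a4, Anxa2, S100a6 and Ahnak under the reported setting and 10 alternatives. S100a4 and Anxa2 fell below the line in the 2 settings with quantile normalisation, S100a6 in 1 of them, and every value was near 1 without the block or with the array of conflicting labels moved to the Nrp1-positive group.

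The direction of the differences was counted apart from the calls. Of the 14 probe sets, 8 were higher in Nrp1-positive cells in both replicate numbers and 0 were lower in both. Among all tested probe sets, 28% were higher in both and 23.7% lower in both. The other 6 of the 14 differed in sign, as did 10866 of all 22519 tested. The members were chosen with earlier results of these data known, so these counts are a description. The Nrp1-positive arrays were both above the Nrp1-negative ones in 4 of the 14 and both below in 0, where the shares of all probe sets were 11.5% and 8.57%. Probe sets of one gene share a transcript and are not separate evidence. By gene, at the leading probe set, 5 of 8 were higher in both replicate numbers and 3 differed in sign. The median difference of the 8 genes was 0.31, at 0.57 in replicate 1 and 0.10 in replicate 2, beside 0.01 over all tested probe sets, at −0.0054 in replicate 1 and 0.03 in replicate 2. The absolute difference was larger in replicate 1 than in replicate 2 in 6 of the 8 genes and in 8 of the 14 probe sets. This held for 52.3% of all tested probe sets. No test of the difference between the replicate numbers was possible, because each holds 1 array a group.

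The members also differed between the replicate numbers, in different directions. At the leading probe sets, replicate 2 minus replicate 1 was 1.59 for Anxa2, 1.40 for Anxa1, 1.07 for S100a6 and 0.71 for S100a4. It was 0.37 for Anxa5, 0.04 for S100a13, −0.18 for S100a10 and −0.87 for Anxa6. At their other tested probe sets S100a10 gave 0.26 (1416762_at) and 0.10 (1439348_at), and Anxa2 gave −0.32 (1437692_x_at). Those of Anxa6 gave −0.06 (1429247_at), −0.35 (1429246_a_at) and −0.12 (1442288_at). Nrp1-negative replicate 1 was the lowest of the 4 arrays in 6 of the 8 genes and in 7 of the 14 tested probe sets, as it was in 26.1% of all tested probe sets. At the leading probe sets of S100a6, Anxa1, Anxa2 and Anxa5, both arrays of replicate 2 were above both of replicate 1. Over the 14 tested probe sets this was 4 (28.6%), near the 29.7% of all tested probe sets. In 4 others of the 14, both arrays of replicate 2 were below both of replicate 1.

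Markers of myeloid cells also differed between the replicate numbers, in the same direction as S100a6, Anxa1, Anxa2 and Anxa5 but not as Anxa6. All 13 myeloid markers with a probe set were higher on both arrays of replicate 2 than on both of replicate 1, and Nrp1-negative replicate 1 was the lowest array in 11 of the 13. Their summed intensity was 12446 and 39065 in Nrp1-positive replicates 1 and 2, against 9912 and 43272 in Nrp1-negative replicates 1 and 2. Lyz2, the lysozyme gene of macrophages and neutrophils, was at 1602 and 8504 on the Nrp1-positive arrays and at 1087 and 8992 on the Nrp1-negative ones, in the same order. None of the 13 was at 0, and the lowest single value was 12.5, for Cd14 on Nrp1-negative replicate 1. Their median difference between the groups was 0.30 in replicate 1 and −0.19 in replicate 2, beside 0.57 and 0.10 for the 8 member genes. Single markers ranged from −0.37 (Itgax) to 1.06 (Cd14) in replicate 1 and from −0.70 (Itgax) to −0.05 (Fcgr3) in replicate 2. S100a4, S100a6, Anxa1 and Anxa2 are also expressed by myeloid cells, and the part of such cells in the members' values was not tested. In RNA of sorted cells, fewer cells of a type and less RNA per cell cannot be told apart.

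**Figure D4:**
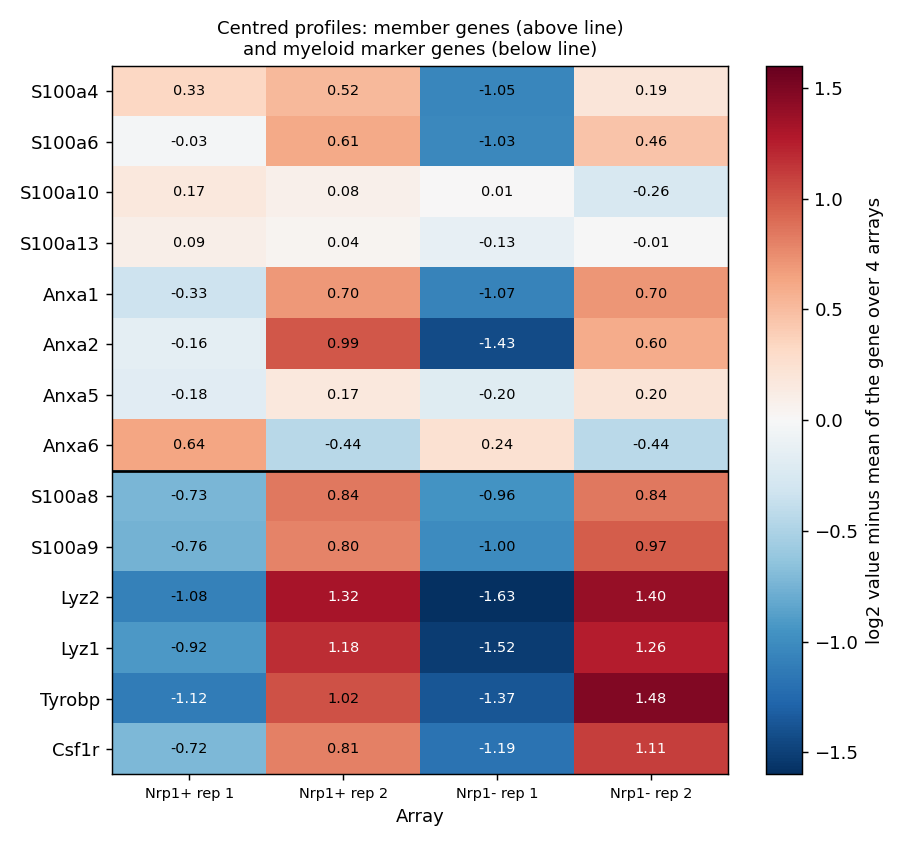
Log2 value of each gene on each array minus that gene's mean over the 4 arrays (colour and printed number), for the 8 member genes above the line and 6 genes typical of myeloid cells below it. S100a4 had one low array, Nrp1-negative replicate 1 at −1.05. Lyz2 was below its mean on both arrays of replicate 1, at −1.08 and −1.63, and above it on both of replicate 2. S100a6, Anxa1, Anxa2 and Anxa5 lay below and above their own means on the same arrays as Lyz2, and Anxa6 the other way round.

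Of the other marker lists, summed B cell markers were at 8442 and 10959 in Nrp1-positive replicates 1 and 2, against 8880 and 15171 in Nrp1-negative replicates 1 and 2. Over the 5 tested B cell markers the median difference was 0.58 in replicate 1 and −0.93 in replicate 2. They did not move as one. Cd79b was higher in Nrp1-positive cells in both replicates (0.58 and 0.46) and Ighm lower in both (−0.22 and −0.19). Cd74, H2-Aa and H2-Ab1 were higher in replicate 1 and lower in replicate 2. Cd79a, Ms4a1, Pax5, Blnk and Cr2 were below the filter. The median was −0.12 in replicate 1 and −0.37 in replicate 2 over 6 CD8 T and NK cell markers, 0.18 and −1.75 over 2 erythroid markers, and 0.24 and 0.07 over 4 plasmacytoid dendritic cell markers. None of the markers on the 5 lists was called, in limma with the block.

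Of the 11 remaining S100 genes on the list, 9 had a probe set and 3 were tested, with 0 called in either direction in limma with the block and a median difference of 0.04. S100a8 and S100a9, which form the calprotectin of neutrophils and monocytes, differed by 0.23 and 0.25 in replicate 1 and by 0.00075 and −0.17 in replicate 2. S100a8 was at 7081 and 21055 in Nrp1-positive replicates 1 and 2, against 6026 and 21044 in Nrp1-negative replicates 1 and 2, and thus followed the replicate number. S100a1, at 46.7 and 72.1 in Nrp1-positive replicates 1 and 2, against 87.8 and 129 in Nrp1-negative replicates 1 and 2, was lower in Nrp1-positive cells by the same amount in both (−0.71 each, adjusted p = 0.753 in limma with the block). Of 8 other annexins, 7 had a probe set and 3 were tested, with 0 called and a median of −0.04. Anxa7 differed by −0.06, Anxa4 by 0.0080, which turned to −0.02 after quantile normalisation, and Anxa3 by −0.04.

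Among 15 partners and receptors, 14 had a probe set, 8 were tested and 0 were called in limma with the block, with a median of 0.05. Ahnak, the giant scaffold protein that binds the complex of Anxa2 and S100a10, had the lowest adjusted p of the list. It was at 9987 and 7295 in Nrp1-positive replicates 1 and 2, against 6008 and 4870 in Nrp1-negative replicates 1 and 2, so that the groups did not overlap. Its difference was 0.73 in replicate 1 and 0.58 in replicate 2, with a mean of 0.66 (1.58-fold, standard error 0.11, adjusted p = 0.0676 in limma with the block). It passed in limma with the block after quantile normalisation (adjusted p = 0.00161), with 1 probe set a gene (0.0366) and with the lower pseudocount (0.0498). Myh9, the myosin heavy chain bound by S100a4, differed by −0.03 and Cacybp by 0.02.

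Of 18 genes of the actin cytoskeleton or known to mark memory T cells, 17 had a tested probe set, and 1 was higher and 0 lower in limma with the block, with a median of 0.10. The called gene was Itgb1, the beta-1 integrin subunit, at 2166 and 1527 in Nrp1-positive replicates 1 and 2, against 304 and 616 in Nrp1-negative replicates 1 and 2. It rose by 2.02 (standard error 0.27, adjusted p = 0.0214 by limma with the block), or by 2.76 in replicate 1 and 1.29 in replicate 2. At this leading probe set the call was lost without the block (adjusted p = 1.00) and without the trend of the variance prior (0.698). It was also lost without the filter (0.0764), at percentile 70 (0.0571) and with the array of conflicting labels moved to the Nrp1-positive group (0.999). Another Itgb1 probe set rose by 1.83, or by 2.05 in replicate 1 and 1.61 in replicate 2, and its groups did not overlap. Its adjusted p was 0.00254 in limma with the block and 0.9999 without the block. Without the trend of the variance prior, or with that array moved, no probe set of the array was called. Crip1, a LIM domain protein singled out after its values were seen, was at 15041 and 13050 in Nrp1-positive cells and at 7421 and 10300 in Nrp1-negative cells. Its difference was 1.02 in replicate 1 and 0.34 in replicate 2 (adjusted p = 0.201 in limma with the block, and 0.00563 after quantile normalisation).

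The genes with profiles most like those of the leading members were found by the Euclidean distance between log2 values centred on each gene's own mean over the 4 arrays, among 10192 other genes. For S100a4 they were BC035044 (distance 0.07), Penk, the proenkephalin gene (0.12), and Fam214b (0.13). Penk was at 1795 and 2144 in Nrp1-positive replicates 1 and 2, against 766 and 1714 in Nrp1-negative replicates 1 and 2. For Anxa2 they were Lxn (0.17), Dusp4 (0.19) and Lgmn (0.20). Dusp4, a phosphatase of MAP kinases, was at 1584 and 3977 in Nrp1-positive cells and at 629 and 2520 in Nrp1-negative cells. It was the one of these 9 genes called in limma with the block (0.98 higher, adjusted p = 0.0492), where 0.124% of all tested probe sets were called higher. The call was lost without the block (adjusted p = 1.00), without the trend of the variance prior (0.698), with the higher pseudocount (0.0693), without the filter (0.160), at percentile 70 (0.0766) and with the array of conflicting labels moved to the Nrp1-positive group (0.999). For S100a6 they were the receptor tyrosine kinase gene Axl (0.08), Gcnt1 (0.12) and Dstn (0.13). With 4 arrays such likeness is a description. Genes picked by their profile share the members' group difference by that choice, so a call among them is not separate evidence.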

How the data were processed

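The authors deposited intensity values per probe set, which are linear signals. The software was MAS5, per the submitters' processing notes, with its settings and detection calls unknown here. RNA carried a biotin label on a 1-colour mouse array, per the labels' protocols. All 4 arrays were scaled to the higher of the authors' 2 trimmed means (500.003, after trimming 2% at each end) and analysed as log2(intensity + 18.3), the pseudocount being 0.25 of the mean array median. Genes were named from the platform annotation: 34945 probe sets had 1 gene, 932 several, 9160 none here and 64 were controls, and 0 symbols changed by gene ID against RefSeq.

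The 22519 probe sets from percentile 50 of mean level upward were tested with limma 3.58.1 in R 4.3.3 (two-sided, empirical Bayes, variance prior following the mean level, Benjamini-Hochberg over all of them), with the replicate number as a block because the stated comparison is within replicate numbers. This left 1 residual degree of freedom beside 9.01 from the variance prior, so standard errors rest mostly on other probe sets of similar level. Same-numbered arrays shared a scaling target and correlated more than arrays of one group. An exact permutation test of 2 against 2 arrays cannot go below p = 0.333. The number of arrays limits precision. The fit was tested on simulated data whose noise followed the fitted trend of variance with level. Such data cannot show how the fit fares where single probe sets depart from that trend. A gene is led by its probe set with the highest mean level.

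All 8 measured members were named. Of each further list, the genes called or else the 3 with the highest mean level were named, as were the 3 nearest profiles of the 3 members with the largest difference. The members, lists and tests were chosen with earlier results of these data known. Alternatives changed the normalisation, block, variance prior, pseudocount, filter, choice of probe sets, group of the array with conflicting labels and the arrays used. Drawings were made with matplotlib 3.10.9.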

Additional observations from a re-analysis of the deposited data

How the results depend on the processing

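With the replicate block and each array grouped by its title, 8 alternatives were run. Changing only the variance prior, the filter or the choice of probe sets leaves the difference itself as it was. Only quantile normalisation and the pseudocount could therefore turn a direction. Under these every tested member kept its direction, except Anxa5, which turned to 0.0054 after quantile normalisation. Quantile normalisation called 2 members higher, and 3 with 1 probe set a gene as well (a combination chosen after seeing the data), where 0 were called as reported; 0 were called lower in any setting. Over all probe sets, 28 were higher and 18 lower as reported. The counts were 82 and 58 after quantile normalisation, 107 and 62 of 10200 with 1 probe set a gene as well, 16 and 8 without a filter, and 18 and 8 at percentile 70. With a pseudocount of 1 mean array median, 10 were lower. They were 0 and 0 without the trend of the variance prior (1514 at an unadjusted p below 0.05), 0 and 0 with no replicate block (243), and 0 and 0 with Nrp1-negative replicate 1 taken as Nrp1-positive (851). In that last setting Anxa1 was −0.0031, Anxa6 −0.0028 (1415818_at) and 0.21 (1429247_at), S100a11 with its shared probe set −0.044, S100a9 −0.17, Anxa4 −0.11 and Myh9 0.16, each turned. S100a9 turned to −0.026 and Anxa4 to −0.020 after quantile normalisation, also with 1 probe set a gene. The cause of these changes was not tested.

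With the block, leaving out either array of one replicate number left the difference within the other, with no test, so that S100a4 was 0.32 without either array of replicate 1 and 1.38 without either of replicate 2. Leaving out an array without the block mixes the replicate number with the group, and the lone array of a group is assumed to vary like the others. Such fits called 0 to 3 probe sets higher, the 3 being without Nrp1-negative replicate 2, and 0 lower, with 179 to 522 at an unadjusted p below 0.05 and 0 members called. Over all fits with an array left out, S100a4 ranged from 0.23 to 1.47. Directions turned for S100a6 (−0.18 to 1.32), Anxa2 (−0.18 to 1.85), Anxa1 (−0.52 to 1.25), S100a11 with its shared probe set (−0.35 to 0.94), S100a8 (−0.78 to 1.02), S100a9 (−0.95 to 1.02), Anxa3 (−0.68 to 0.60), Anxa4 (−0.42 to 0.44) and Dusp4 (−0.0045 to 1.97). In each of these the lowest value was without Nrp1-negative replicate 1 and the highest without Nrp1-negative replicate 2. Directions also turned for Anxa5 (−0.20 to 0.20), the S100a10 probe set 1439348_at (−0.08 to 0.48, the lowest with the block and without either array of replicate 2), the Anxa6 probe sets 1415818_at (−0.34 to 0.74), 1429247_at (−0.40 to 0.21) and 1442288_at (−0.042 to 0.20), the Anxa2 probe set 1437692_x_at (−0.10 to 0.29), Anxa7 (−0.17 to 0.061), Myh9 (−0.27 to 0.20) and Cacybp (−0.22 to 0.26).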
